A study of Mus musculus with 6 samples.

Results

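The autophagy machinery was followed through 10 genes: Ulk1, Becn1, Atg5, Atg7, Atg12, Atg16l1, Map1lc3b, Gabarapl1, Gabarapl2 and Pink1. They were named for their known function in the pathway, by a rule that uses no measured value, although earlier results of these data were known when the list was drawn up, and every probe whose RefSeq accession belongs to them was taken. The 10 genes had 16 probes, of 16535 named genes and 41174 probes on the array. Blood RNA came from male C57BL/6J mice that were 9 weeks old when the diets began. FR mice received CE-2 chow under a food restriction labelled 50% for 2 weeks, control mice received the normal diet, and there were 8 animals per diet. Both diets shared somunopentyl anaesthesia, blood drawn from the right side of the heart and freezing in liquid nitrogen. RNA was pooled before hybridisation, so the spread between single animals was not measured. Pool 2 held animals 1 to 4 of each diet, pool 3 held animals 5 to 8, and pool 1 held all 8 again. Each pool filled 2 two-colour arrays, with FR RNA in Cy5 and control RNA in Cy3 on the one and the dyes exchanged on the other, which made 6 arrays. Pools 2 and 3 were the replicates (n = 2), and pool 1 is given beside them as a repeat with the same animals.

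Autophagy encloses cell contents in a double membrane and delivers them to the lysosome for breakdown, and it is induced by nutrient shortage. A kinase complex starts it, a lipid kinase complex marks the growing membrane, and ubiquitin-like conjugation attaches ATG8 proteins (the LC3 and GABARAP families) to that membrane, where they hold cargo receptors. In blood the pathway is best known for clearing mitochondria from maturing red cells. mRNA levels, which these arrays measured, are not a measure of autophagic flux.

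In FR blood 2 of the 10 genes were higher than in control blood, 4 were lower, 2 did not pass the test and 2 were too dim to be tested. Atg12, the ubiquitin-like protein of the conjugation system, fell 2.58-fold, and Gabarapl1, an ATG8 protein, fell 2.31-fold. Gabarapl2, another ATG8 protein, fell 1.46-fold and Atg16l1, which places the conjugation enzyme on the membrane, fell 1.28-fold. Pink1, the kinase that marks damaged mitochondria, rose 1.64-fold, and Becn1, a subunit of the lipid kinase complex, rose 1.44-fold. Ulk1, the starting kinase, and Map1lc3b, which encodes LC3B, did not pass. Changes were called at an adjusted p under 0.05 (limma, two-sided, Benjamini-Hochberg over 11498 features). Of all 7905 named genes tested, 3.25% were called higher and 28.2% lower. The median log2 ratio of FR over control was -0.19 over the 8 tested members and -0.04 over all named genes. Atg16l1 passed the filter on dim probes through its control signal alone, so the counts over tested members describe those genes and not the whole list.

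With 2 pools limma took the spread of a gene from probes of like brightness and gave no weight to that gene's own spread, which makes these p-values too small for genes whose pools differ. The adjusted p of each call of a member is therefore set beside the value obtained when the prior degrees of freedom were the 5.41 estimated from 3 pools, called the 3-pool prior here. Under that prior 2 members, Atg12 and Gabarapl1, stayed below the threshold on the lower side and 0 on the higher side, where 2 had an unadjusted limma p under 0.05. The shares of all named genes were then 17.9% lower and 1.29% higher.

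**Figure D1:**
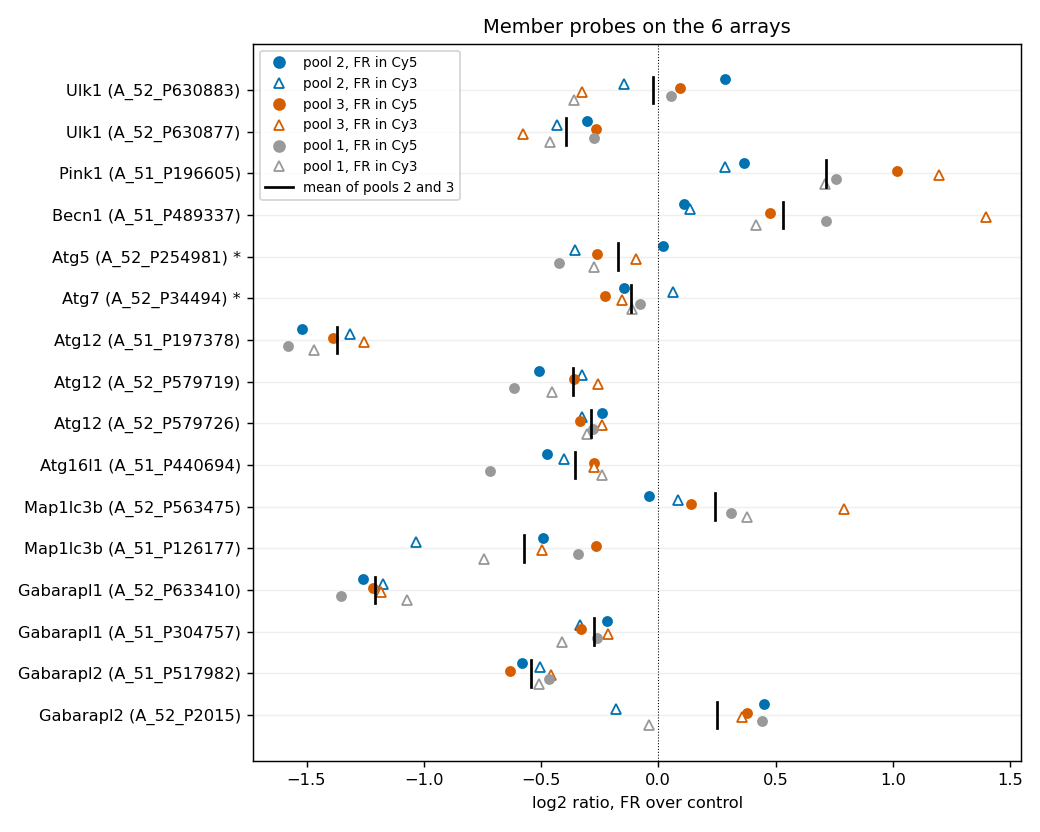
Log2 ratio of FR over control (x axis) on each of the 6 arrays for the 16 probes of the 10 genes, with points coloured by pool, circles for FR in Cy5 and triangles for FR in Cy3, and the mean of pools 2 and 3 as a vertical line. A star marks the untested genes Atg5 and Atg7. All 6 points of the brightest Atg12 and Gabarapl1 probes lie below -1, all 6 points of Pink1 and Becn1 lie above 0, and the dimmer Atg12 and Gabarapl1 probes lie nearer to 0.

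Between 20.4% and 55.6% of spots were well above background in FR and between 37.2% and 62.1% in control, and no spot was saturated. Marker lists of 10 genes per blood cell type describe the cells behind these ratios. The summed linear signal over the 4 arrays of pools 2 and 3 was 3897 to 5154 in FR and 28790 to 51100 in control for 7 monocyte markers with a probe. It was 2168 to 2497 against 9281 to 14280 for 10 B cell markers, 3241 to 3466 against 4541 to 4854 for 10 T cell markers, and 40500 to 43760 against 89600 to 106600 for 8 platelet markers. None of these 4 lists overlapped between the diets. The share of all genes, or of other lists of like size, without overlap was not counted, and the 4 arrays hold only 2 separate pools. Neutrophil markers (9587 to 11240 against 10930 to 24430, 10 genes) and erythroid markers (283800 to 504100 against 308300 to 484700, 8 genes) overlapped. The lower calls counted 5 of 6 tested monocyte genes, 5 of 8 B cell genes, 4 of 9 T cell genes, 7 of 8 platelet genes, 3 of 7 neutrophil genes and 1 of 8 erythroid genes. Among all named genes tested, 28.2% were lower. Of the markers called lower, Ccr2, Csf1r, Ms4a1, Cd22, Cd3d, Lck, Cd2 and Csf3r passed the filter through their control signal alone. Their FR signal was above background on 0 to 3 of 4 arrays, so the filter favoured such lower calls. The higher calls counted 2 erythroid genes, Tfrc and Fech, and 1 neutrophil gene, Lcn2. With the 3-pool prior the lower calls were 5 monocyte, 5 B cell, 4 T cell, 6 platelet, 0 neutrophil and 1 erythroid, and the only higher call was Tfrc. In FR Blk (B cell), Cd247 (T cell), Ccr2 and Cx3cr1 (monocyte) were well above background on 0 of 4 arrays. Only Ccr2 of these passed the filter, with control above background on 4 of 4 arrays. Other genes of the same lists did not pass the test, such as Cd79a (-0.14), Cd3e (-0.05) and Cd14 (0.10). Cd79a and Cd3e were above background in FR on 4 of 4 arrays. The globin gene Hba-a1 and the haem enzyme gene Alas2 were well above background in both diets on all 4 arrays. Of the cardiac list, which bears on blood drawn from the heart, Actc1 alone passed the filter, above background on 3 of 4 arrays in FR and 4 of 4 in control (log2 ratio -0.13, limma adjusted p = 0.597), while Myh6 was above background on 0 of 4 arrays in FR and Tnnt2 on 0 of 4 in control, and the summed signal of the 5 genes was 494.3 to 545.4 in FR and 467.1 to 532.4 in control. In bulk blood, fewer cells of a type and less RNA per cell cannot be told apart, and the part of cell composition in the ratios of the 10 genes was not tested.

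Ulk1, the kinase whose activation under nutrient shortage starts autophagy, showed no change on its brightest probe, A_52_P630883 (accession NM_009469). With FR in Cy5 the log2 ratios were 0.06 in pool 1, 0.28 in pool 2 and 0.09 in pool 3. With FR in Cy3 they were -0.36, -0.15 and -0.33 in the same order. All 3 ratios were above 0 in one dye orientation and below 0 in the other, so the sign followed the dye. The mean of pools 2 and 3 was -0.02 ± 0.13 (SD, n = 2), with a limma SE of 0.15 and an adjusted p of 0.931 (0.930 with the 3-pool prior). The dimmer Ulk1 probe, A_52_P630877, was below 0 on all 6 arrays, at -0.37 in pool 2, -0.42 in pool 3 and -0.37 in pool 1. Its mean was -0.39 ± 0.04 (SD, n = 2), which passed when each probe was tested on its own (limma adjusted p = 0.0397, 0.119 with the 3-pool prior). Of 13258 probes in that test 4.01% were called higher and 25.5% lower. The named genes whose ratios over the 6 arrays lay nearest to those of the brightest Ulk1 probe were Triap1, Cyp46a1 and Klk1b8, at Euclidean distances of 0.153, 0.182 and 0.197 on the log2 scale.

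Becn1 encodes Beclin 1, a subunit of the lipid kinase complex that forms the membrane from which autophagosomes grow. Its single probe, A_51_P489337 (NM_019584), gave log2 ratios of 0.72 and 0.42 in pool 1, 0.11 and 0.14 in pool 2 and 0.48 and 1.40 in pool 3, with FR in Cy5 first. All 6 were above 0, and the highest was the pool 3 array with FR in Cy3. That array had the lowest share of FR spots well above background (20.4%, with 47.8% in control). It also gave the highest ratios of Pink1 (1.20) and Map1lc3b (0.79). The mean log2 signal of pools 2 and 3 was 10.56 in FR and 10.03 in control, and the mean log2 ratio was 0.53 ± 0.58 (SD, n = 2; limma SE 0.15). Becn1 rose with an adjusted p of 0.00135, and the call was lost with the 3-pool prior (adjusted p = 0.152). It was also lost with median centring in place of loess (log2 ratio 0.31, adjusted p = 0.308) and when the arrays with control in Cy5 were dropped (0.29, adjusted p = 0.0772). Replacing pool 3 by pool 1 gave a log2 ratio of 0.34.

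Pink1 encodes the mitochondrial kinase that flags damaged mitochondria for removal by autophagy. Probe A_51_P196605 (NM_026880) gave log2 ratios of 0.76 and 0.71 in pool 1, 0.36 and 0.29 in pool 2 and 1.02 and 1.20 in pool 3. All 6 arrays were above 0, and the 2 arrays of a pool lay closer to each other than to those of the other pools. Log2 signals ran from 10.94 to 11.85 in FR and from 10.48 to 10.83 in control, without overlap. The share of all genes whose diets did not overlap was not counted, here or for the genes below. The mean log2 ratio was 0.72 ± 0.55 (SD, n = 2; limma SE 0.15), and Pink1 rose with an adjusted p of 8.08e-06. The 3-pool prior put it at 0.0612. Pool 3 had the higher ratio of the separate pools for Pink1 (1.11 against 0.32 in pool 2), for Becn1 (0.94 against 0.12) and for Map1lc3b (0.47 against 0.02). The medians of the erythroid, B cell, monocyte, neutrophil and T cell marker lists were also higher in pool 3 than in pool 2. It was 0.36 against -0.19 for the erythroid list, -0.60 against -1.03 for B cells, -1.06 against -1.49 for monocytes, -0.12 against -0.50 for neutrophils, and -0.23 against -0.32 for T cells, while platelets stood at -1.11 in both. The part of cell composition in this order was not tested.

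**Figure D2:**
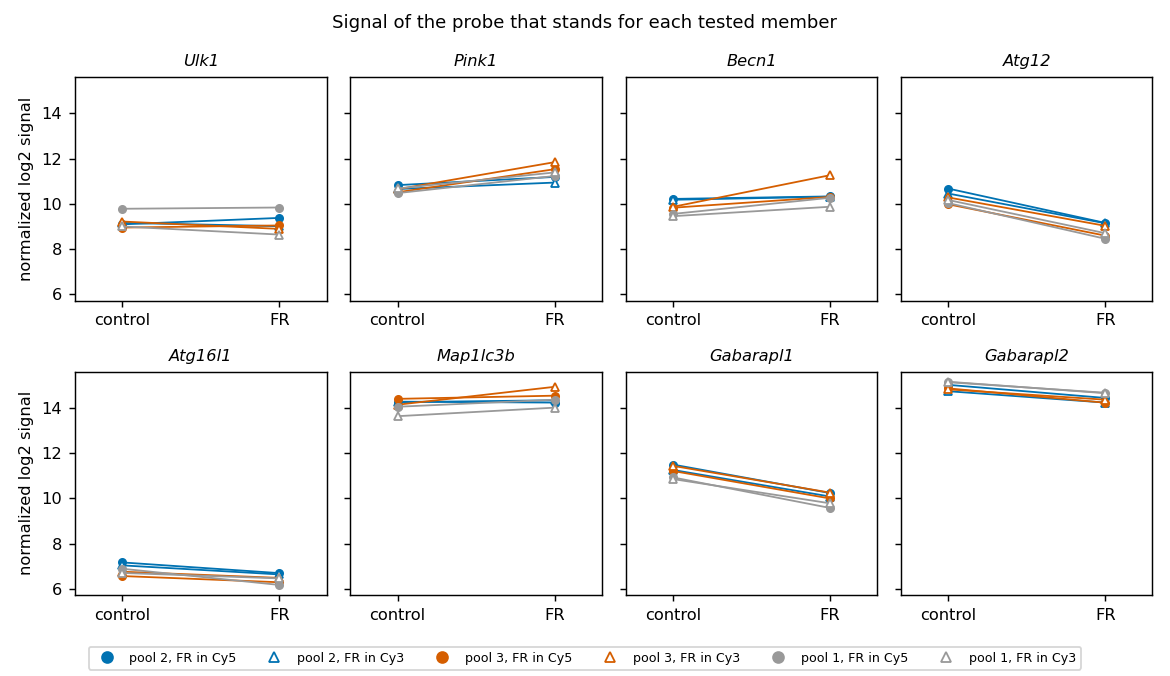
Normalized log2 signal (y axis) of the brightest probe of each of the 8 tested genes in control and FR, with a line joining the diets of each of the 6 arrays. Atg12, Gabarapl1 and Gabarapl2 have every FR signal below every control signal, Pink1 has every FR signal above every control signal, and Atg16l1 lies at the lower end of the scale. The 6 arrays hold only 2 separate pools, and the share of all genes without overlap was not counted.

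Of the 8 tested members on their brightest probes, the conjugation gene Atg12 had the lowest ratio. With the mean over probes Gabarapl1 was lower (-0.74) than Atg12 (-0.67). Atg12 is the ubiquitin-like protein that Atg7 activates and that is joined to Atg5, and the Atg12-Atg5 conjugate with Atg16l1 directs ATG8 proteins to the membrane. Probe A_51_P197378 (NM_026217) gave Atg12 log2 ratios of -1.58 and -1.47 in pool 1, -1.52 and -1.32 in pool 2 and -1.39 and -1.26 in pool 3. Log2 signals were 8.46 to 9.16 in FR and 9.98 to 10.68 in control, so the diets did not overlap. The mean log2 ratio was -1.37 ± 0.07 (SD, n = 2; limma SE 0.15, adjusted p = 2.86e-19, 0.00284 with the 3-pool prior). Both other Atg12 probes were below 0 on all 6 arrays and smaller in size. A_52_P579719 gave -0.36 ± 0.08 (SD, n = 2; limma adjusted p = 0.0588, 0.145 with the 3-pool prior) and A_52_P579726 gave -0.29 ± 0.0033 (SD, n = 2; limma adjusted p = 0.176, 0.253 with the 3-pool prior). The mean over the 3 probes was -0.67 and was still called lower. These files hold no probe sequences, so which part of the Atg12 transcript each probe reads was not analysed here.

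Atg16l1 fell by 0.36 on the log2 scale. Probe A_51_P440694 (NM_029846) gave -0.44 in pool 2, -0.27 in pool 3 and -0.48 in pool 1, and all 6 arrays were below 0. FR was well above background on only 1 of the 4 arrays of pools 2 and 3, and control on all 4, so the FR level rests on a dim signal. The adjusted p was 0.0111 by limma and 0.0845 with the 3-pool prior, which ended the call. With the scanner's processed signals and median centring, in place of normexp and loess, the log2 ratio was -1.24. Median centring in place of loess, with normexp kept, gave -0.54. Atg5 and Atg7 were not tested, because neither diet was well above background on all 4 arrays. Atg5 (A_52_P254981, NM_053069) was above background in control on 3 of 4 arrays and in FR on 0 of 4, with a log2 ratio of -0.17 ± 0.0075 (SD, n = 2), which did not pass when dim probes were kept (limma adjusted p = 0.358). Atg7 (A_52_P34494, NM_028835), the enzyme that activates Atg12 and the ATG8 proteins, was above background in control on 2 of 4 arrays and in FR on 0 of 4, with a log2 ratio of -0.12 ± 0.11 (SD, n = 2) and an adjusted p of 0.570 when dim probes were kept. For Atg5 and Atg7 a low mRNA level and a weak probe cannot be told apart, and a change in either gene was not detectable at this signal.

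Of the 3 ATG8 genes, Gabarapl1 and Gabarapl2 were lower on their brightest probes and Map1lc3b did not pass, and the differences between the genes were not tested. Gabarapl1 (A_52_P633410, NM_020590) gave log2 ratios of -1.35 and -1.07 in pool 1, -1.26 and -1.18 in pool 2 and -1.22 and -1.18 in pool 3. Its log2 signals were 9.57 to 10.25 in FR and 10.85 to 11.49 in control, with no overlap. The mean log2 ratio was -1.21 ± 0.013 (SD, n = 2; limma SE 0.15, adjusted p = 3.17e-15, 0.00359 with the 3-pool prior). The dimmer Gabarapl1 probe, A_51_P304757, was above background in FR on 3 of 4 arrays and gave -0.27 ± 0.0014 (SD, n = 2; limma adjusted p = 0.148, 0.228 with the 3-pool prior), below 0 on all 6 arrays.

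Gabarapl2 (A_51_P517982, NM_026693), known also as GATE-16, gave log2 ratios of -0.47 and -0.51 in pool 1, -0.58 and -0.50 in pool 2 and -0.63 and -0.46 in pool 3. Every FR signal (14.23 to 14.67 on the log2 scale) was below every control signal (14.74 to 15.16). The mean log2 ratio was -0.54 ± 0.0026 (SD, n = 2; limma SE 0.18, adjusted p = 0.0134, 0.0790 with the 3-pool prior). The dimmer probe, A_52_P2015, had the opposite sign at 0.25 ± 0.16 (SD, n = 2; limma adjusted p = 0.193, 0.294 with the 3-pool prior), and the mean over the 2 probes was -0.15 (adjusted p = 0.520), which ended the call. Keeping only the arrays with FR in Cy3 ended it too (log2 ratio -0.48, adjusted p = 0.222).

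Map1lc3b encodes LC3B, the ATG8 protein most often used to mark autophagosomes. Its brightest probe, A_52_P563475 (NM_026160), gave log2 ratios of 0.31 and 0.38 in pool 1, -0.04 and 0.08 in pool 2 and 0.14 and 0.79 in pool 3. Log2 signals of 14.01 to 14.93 in FR overlapped those of 13.63 to 14.40 in control. The mean log2 ratio of 0.24 ± 0.31 (SD, n = 2; limma SE 0.18) did not pass (adjusted p = 0.370, 0.471 with the 3-pool prior). Replacing pool 2 by pool 1 made it pass on the higher side at 0.40 (limma adjusted p = 0.0448). The dimmer probe, A_51_P126177, went the other way, at -0.76 in pool 2, -0.38 in pool 3 and -0.54 in pool 1, below 0 on all 6 arrays. Its mean of -0.57 ± 0.27 (SD, n = 2) was called lower among single probes (limma adjusted p = 9.73e-04, 0.0550 with the 3-pool prior). Map1lc3b therefore had no direction shared by its probes, and the mean over both was -0.16.

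At the level of probes, 14 of the 16 passed the filter, of which 2 were called higher, 6 lower and 6 neither, against 0 higher and 2 lower with the 3-pool prior. Of all 13258 probes tested, 4.01% were called higher and 25.5% lower by limma. Of the 5 genes with more than 1 probe, Atg12 and Gabarapl1 had probes of the same sign and different size, Ulk1 had 1 probe near 0 and 1 below it, and Gabarapl2 and Map1lc3b had probes of opposite sign. The difference between probes of a gene was not itself tested.

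**Figure D3:**
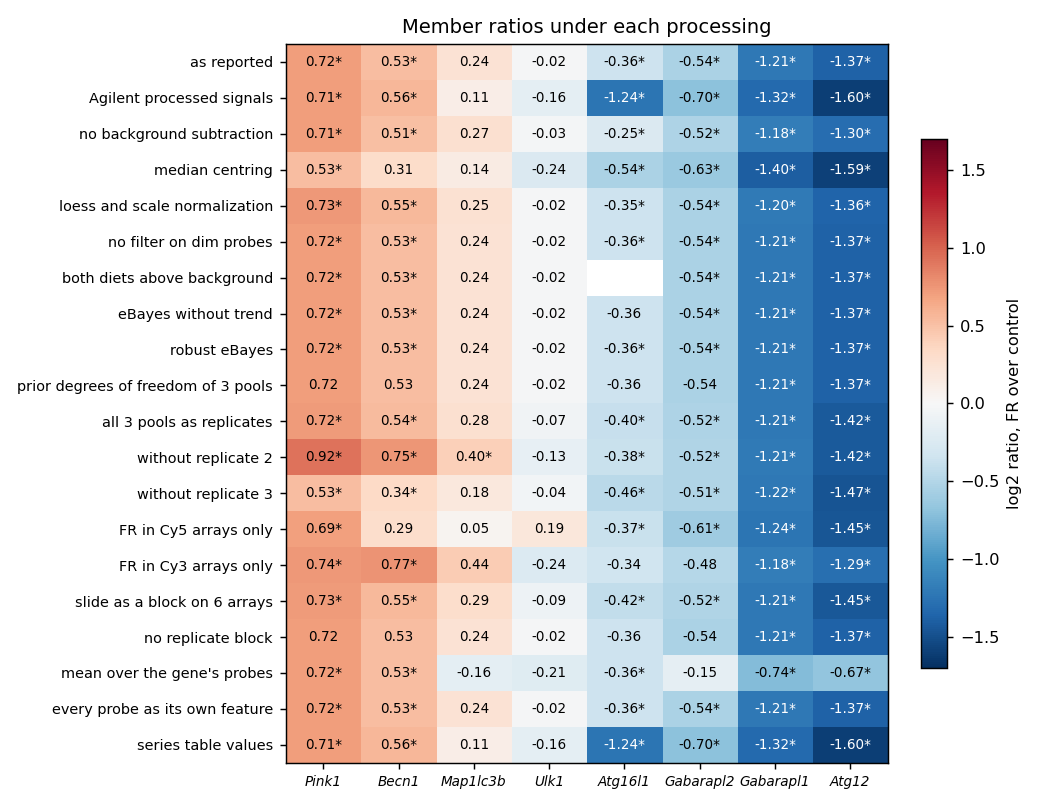
Log2 ratio of FR over control, printed in each cell and shown by its colour, for the 8 tested genes (columns) under the reported processing and 19 alternatives (lines of cells), with a star where the limma adjusted p was under 0.05 and a blank cell where Atg16l1 was not tested. Atg12 (-1.60 to -0.67) and Gabarapl1 (-1.40 to -0.74) carry a star throughout, while Ulk1 carries none.

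RefSeq promoter windows run from 250 bases before to 50 after the transcription start (build GRCm38.p6). Windows of 7 of the 10 genes were used, and none of Becn1, Atg12 or Atg16l1. For the 10 genes the search left out a single chromosome, so an unused window does not mean that none was held. The 4 windows shown are those of the 3 ATG8 genes and of Pink1, which rose, so that the upstream sequence of genes on either side of 0 can be compared. They lie at chr6:129532942-129533241 on the plus strand for Gabarapl1, chr8:111940453-111940752 on the plus strand for Gabarapl2, chr8:121590188-121590487 on the plus strand for Map1lc3b and chr4:138326247-138326546 on the minus strand for Pink1. Each is written 5′ to 3′ along the gene, with capitals at every match to GGGCGG (the GC box) or CCGGAAG (an ETS core) on either strand, so that CCGCCC is a GC box on the opposite strand.
Gabarapl1: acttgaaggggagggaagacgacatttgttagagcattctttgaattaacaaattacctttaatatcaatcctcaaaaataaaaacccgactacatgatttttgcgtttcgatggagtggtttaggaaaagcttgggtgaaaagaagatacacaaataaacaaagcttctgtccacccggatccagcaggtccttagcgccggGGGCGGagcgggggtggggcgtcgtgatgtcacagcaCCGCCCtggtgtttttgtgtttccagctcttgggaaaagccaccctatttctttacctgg
Gabarapl2: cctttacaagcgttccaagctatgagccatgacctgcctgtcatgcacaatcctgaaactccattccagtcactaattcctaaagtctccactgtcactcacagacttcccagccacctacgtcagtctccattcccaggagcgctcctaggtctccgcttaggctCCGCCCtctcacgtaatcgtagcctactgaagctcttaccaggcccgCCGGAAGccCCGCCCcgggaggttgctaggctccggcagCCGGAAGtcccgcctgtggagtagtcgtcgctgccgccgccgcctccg
Map1lc3b: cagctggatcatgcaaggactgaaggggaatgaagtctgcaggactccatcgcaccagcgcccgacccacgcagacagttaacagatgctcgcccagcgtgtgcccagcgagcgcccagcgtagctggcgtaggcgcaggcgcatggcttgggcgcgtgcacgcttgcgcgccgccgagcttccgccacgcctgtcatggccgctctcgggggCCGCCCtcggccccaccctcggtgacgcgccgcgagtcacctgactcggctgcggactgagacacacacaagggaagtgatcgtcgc
Pink1: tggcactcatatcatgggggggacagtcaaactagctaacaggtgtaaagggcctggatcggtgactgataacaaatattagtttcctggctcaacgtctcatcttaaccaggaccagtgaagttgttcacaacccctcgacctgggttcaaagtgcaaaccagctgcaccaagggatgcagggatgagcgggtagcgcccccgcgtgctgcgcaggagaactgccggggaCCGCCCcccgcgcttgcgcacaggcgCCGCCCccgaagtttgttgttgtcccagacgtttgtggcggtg
Gabarapl1 and Pink1 each held 2 GC boxes, Map1lc3b held 1, and Gabarapl2 held 2 GC boxes and 2 ETS cores. No match overlapped another. Among 32851 promoter windows of the same length, 35.7% held GGGCGG and 8.86% held CCGGAAG. The GC content was 46.3% for Gabarapl1, 60.0% for Gabarapl2, 68.0% for Map1lc3b and 58.0% for Pink1, against a median of 52.7% over all windows. CACGTG, the E-box core of the element read by TFEB, was found once each in the windows of Atg5 and Atg7 and in 7.15% of all windows. The FOXO core GTAAACA occurred in 0 of the 7 windows, against 3.65% of all windows. AGATAA, read by erythroid transcription factors, also occurred in 0 of the 7, against 11.2% of all windows. Ulk1 held 5 GC boxes and Atg5 held 1. A match is a string of letters and not a shown site of binding.

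The other genes of the pathway gave the setting for the 10. Of a list of 57 further autophagy genes, 52 had a probe and 36 were tested, of which 20 were lower, 16 did not pass and 0 were higher by limma, with 1 (Atg2a, 0.28) at an unadjusted p under 0.05 on the higher side. With the 3-pool prior 12 were lower and 0 higher, with 0 at an unadjusted p under 0.05 on the higher side. Among all named genes tested, 28.2% were lower and 3.25% higher by limma, and 17.9% and 1.29% with the 3-pool prior. Of the 20, Atg101, Uvrag, Nrbf2, Rubcn, Wdr45, Wdr45b, Fundc1 and Plekhm1 passed the filter through their control signal alone, with FR above background on 0 to 2 of 4 arrays. Where both diets had to be above background, 13 of 23 tested genes were lower, against 1052 of 4804 named genes. The median log2 ratio of the 36 was -0.41, at -0.55 in pool 2, -0.25 in pool 3 and -0.54 in pool 1. The 8 tested members stood at a median of -0.21 in pool 2, -0.19 in pool 3 and -0.31 in pool 1.

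Beside Ulk1, the initiation list had Atg101, a subunit of the starting kinase complex, lower (-0.71 ± 0.38, SD, n = 2), while the scaffold gene Rb1cc1 did not pass (-0.03, limma adjusted p = 0.876). Ulk2 and Atg13 were too dim to be tested. Beside Becn1, which rose, its partners in the lipid kinase complex were lower or did not pass. Uvrag gave -0.87 ± 0.41 (SD, n = 2), Nrbf2 gave -0.40 ± 0.07 (SD, n = 2) with FR above background on 0 of 4 arrays and control at least 1.26-fold over FR, and Atg14 gave 0.17, which did not pass. Rubcn, which restrains the complex that holds Uvrag, gave -1.31 ± 0.35 (SD, n = 2) with FR above background on 1 of 4 arrays. Pik3c3, the catalytic subunit, was too dim to be tested. Of the genes that supply membrane or read its lipid mark, 4 of 6 tested were lower, namely Vmp1 (-0.73 ± 0.14), Wdr45 (-0.66 ± 0.26), Wdr45b (-0.58 ± 0.36) and Wipi1 (-0.45 ± 0.22; SD, n = 2 for each). With the 3-pool prior the calls of Wdr45b (limma adjusted p = 0.0539) and Wipi1 (0.110) were lost, which left 2 of 6. Over all named genes 28.2% were lower by limma and 17.9% with that prior. The other Wipi1 probe gave -0.36 and did not pass (limma adjusted p = 0.0652).

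Beside Atg12 and Atg16l1, the conjugation list had 1 of 3 tested genes lower, the ATG8 protease gene Atg4a (-0.56 ± 0.16, SD, n = 2). Beside the 3 ATG8 genes, Gabarap was lower on both of its probes (-0.45 ± 0.40 and -0.47 ± 0.44, SD, n = 2), although the call was lost with the 3-pool prior (limma adjusted p = 0.147). Map1lc3a did not pass (0.12 ± 0.09, SD, n = 2, limma adjusted p = 0.507). The cargo receptors that ATG8 proteins bind had 2 of 7 tested genes lower. Both this count and the 1 of 3 of the conjugation list lie near the 28.2% of all named genes called lower. Sqstm1, which encodes p62, fell by 1.13 on the log2 scale (SD 0.17, n = 2, limma adjusted p = 4.40e-13, 0.00520 with the 3-pool prior). Tax1bp1 was lower on all 3 of its probes (-0.63 ± 0.56, SD, n = 2, on the brightest), and the call was lost with the 3-pool prior (limma adjusted p = 0.0910).

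Beside Pink1, the mitophagy list had no gene called higher by limma, with 0 at an unadjusted p under 0.05 on that side. Bnip3l, the receptor through which maturing red cells clear their mitochondria, did not pass on either probe (-0.03 ± 0.27 and -0.11 ± 0.27, SD, n = 2). Fundc1, a receptor on the outer mitochondrial membrane, and Phb2, on the inner membrane, were lower (-0.52 ± 0.04 and -0.45 ± 0.24, SD, n = 2). Fundc1 was above background in FR on 1 of 4 arrays, and the Phb2 call was lost with the 3-pool prior (limma adjusted p = 0.118). Fusion and lysosome genes had 6 of 8 tested lower, against 28.2% of all named genes by limma and 17.9% with the 3-pool prior. Of the 6, Plekhm1 passed the filter through its control signal alone. Lamp2 and Lamp1, the main proteins of the lysosomal membrane, gave -1.45 ± 0.11 and -0.95 ± 0.24 (SD, n = 2), and the other Lamp2 probe gave -0.97. Rab7 (-0.52 ± 0.16), Plekhm1 (-0.41 ± 0.21) and Vamp8 (-0.38 ± 0.24; SD, n = 2 for each) were lower by less, and these 3 calls were lost with the 3-pool prior (limma adjusted p = 0.0636, 0.0735 and 0.169), which left 3 of 8. The other probes of Rab7 (-0.15, limma adjusted p = 0.460) and Vamp8 (-0.24, limma adjusted p = 0.242) did not pass. Both calls were also lost with the mean over probes. Snap29, a SNARE for fusion with the lysosome, gave -1.27 ± 0.21 (SD, n = 2) on its brightest probe, while its other probes gave -0.26 and -0.06 and did not pass. Tfeb, the transcription factor of lysosomal genes, gave 0.19 and did not pass.

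**Figure D4:**
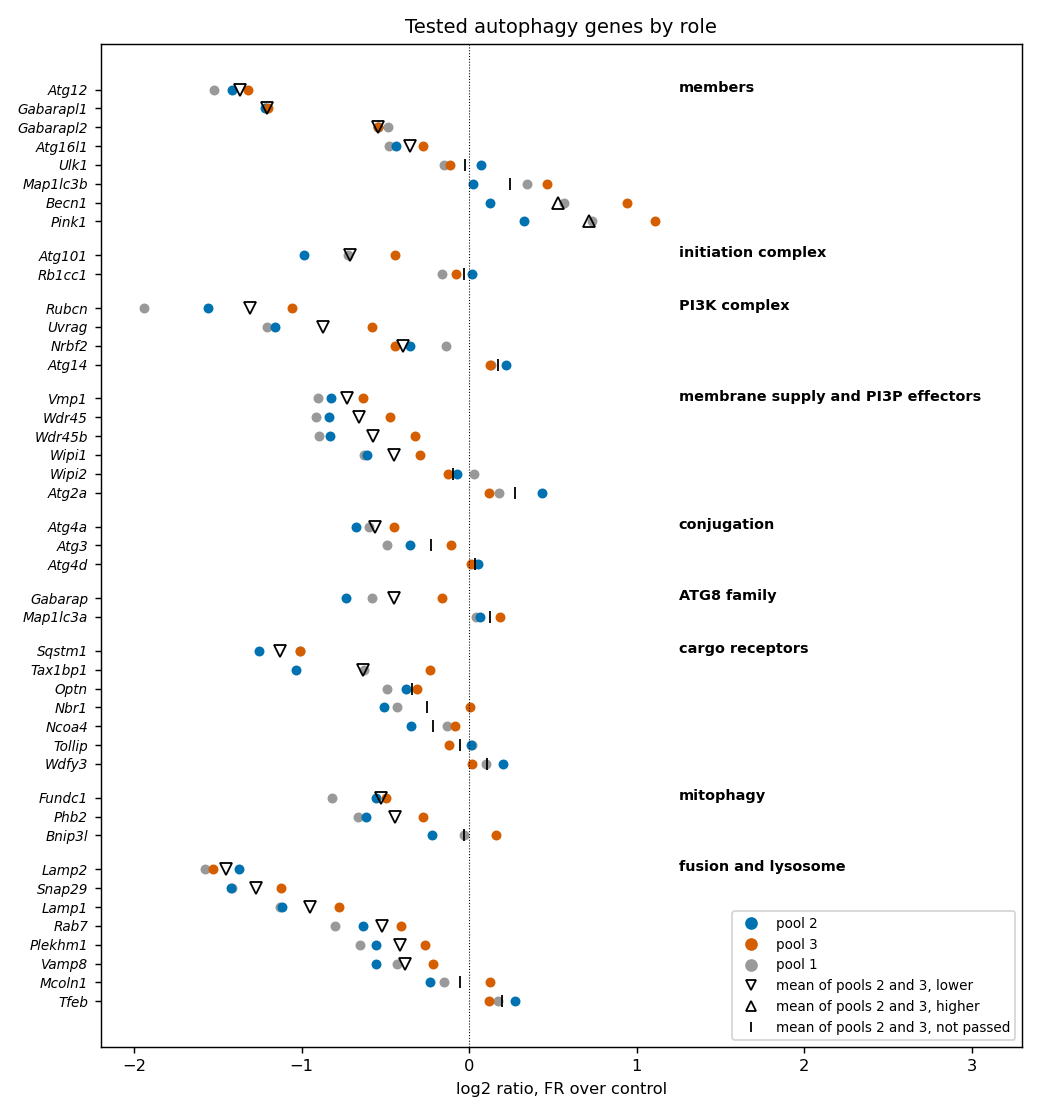
Log2 ratio of FR over control (x axis) in pools 1, 2 and 3 as coloured points for the 8 tested members and other tested autophagy genes, grouped by role, with the mean of pools 2 and 3 as a downward triangle (called lower), an upward triangle (called higher) or a line (not passed). Upward triangles stand at Pink1 and Becn1 only, and the lowest mean is that of Lamp2, at -1.45.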

How the data were processed

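Blood RNA of FR and control mice was measured on 6 two-colour Agilent whole mouse genome arrays. The authors deposited scanner files of linear spot intensity for red and green; the submitters' processing notes name Agilent Feature Extraction 11.0.1.1. The table the authors deposited holds log10 ratios of red over green processed signal, not turned for the dye swap, as a comparison with the scanner files showed (column medians -0.00938 and -0.0277 for pool 1, 0.0441 and 0.00763 for pool 2, 0.0520 and -0.0221 for pool 3, FR in Cy5 first). Turned and centred, it served as an alternative. The 10 genes and all gene lists were chosen with earlier results of these data known.

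Background was corrected with normexp (offset 50) on median signals, and log2 ratios were normalized by loess within arrays with limma 3.58.1 in R 4.3.3. Control spots and outlier spots were left out, spots of a probe were averaged, ratios were turned to FR over control, and the 2 arrays of a pool were averaged. Names came from matching accessions without version to the RefSeq table of GRCm38.p6, which named 23374 probes. The array design is annotated on another build, so no gene coordinates come from it. The filter on dim probes asked that at least 1 diet be well above background in each of the 4 arrays of the separate pools, and the brightest probe stood for its gene. Ratios of pools 2 and 3 were tested against 0 with lmFit and eBayes with trend. FR and control share each array, so the array pairs them, and pool numbers mark the same animal numbers but different animals per diet. Named were all 10 genes with every probe, the called genes of the list in order of size, and 8 genes named whatever their values. A few of the others that did not pass were named after their values were seen. The values of 1 gene of the list are not reported here. At-least folds set the bright diet's mean against the dim diet's, taken no lower than the lowest signal well above background, on single-channel log2 values (loess, then Aquantile). The number of pools limits the precision.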

Additional observations from a re-analysis of the deposited data

Results flagged for a closer look

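On 3 of the 52 probes examined (16 of the members and 36 of other autophagy genes) over the 4 arrays of pools 2 and 3, a single array stood far from the other 3. Chance alone sets apart about 1 in 20 such groups, so a few are to be met among 52. The dimmer Gabarapl2 probe, A_52_P2015, gave a log2 ratio of -0.18 on the pool 2 array with FR in Cy3, where the others gave 0.36 to 0.45. Its pool 1 array with FR in Cy3 gave -0.04 and that with FR in Cy5 gave 0.44. Wipi1, which encodes a reader of the lipid mark on autophagosomes, gave -0.050 on the pool 3 array with FR in Cy3, where the others gave -0.62 to -0.54. Wipi2, a relative of Wipi1, gave -0.19 on the same pool 3 array, where the others gave -0.07 to -0.06.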

How the results depend on the processing

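Atg12 and Gabarapl1 passed under all 19 alternatives, at log2 ratios of -1.60 to -0.67 and -1.40 to -0.74. These alternatives are not independent of each other. The scanner's processed signals and the table the authors deposited hold the same ratios, so their results were identical and count as 1 alternative. Most keep the same brightest probe, and some count pool 1, which holds the same animals. The count of members called higher was 2 and became 1 with median centring, 1 on arrays with FR in Cy5 only, 0 with the 3-pool prior and 0 with no replicate block (FR and control of a pool treated as unpaired samples). Over all 7905 named genes the higher calls were 257, and became 107, 626, 102 and 66 in the same order. Leaving out pool 2, with pool 1 in its place, gave 3 members called higher, and leaving out pool 3 gave 2. The higher calls over all 7905 named genes were then 297 and 1050. The count called lower was 4 and became 2 with the 3-pool prior, 2 on arrays with FR in Cy3 only and 2 with no replicate block, and leaving out a pool gave 4 in either case. Over all 7905 named genes the lower calls were 2228, and became 1413, 1673 and 771 in the same order. With no replicate block the limma adjusted p was 0.0816 for Pink1, 0.198 for Becn1, 0.278 for Atg16l1 and 0.0552 for Gabarapl2. The brightest Ulk1 probe turned to 0.19 on arrays with FR in Cy5 only, and Map1lc3b turned to -0.16 with the mean over its probes. Of the other autophagy genes, 20 were lower, which became 13 where both diets had to be above background (23 tested), 12 with the 3-pool prior and 5 with no replicate block, and 14 to 24 when a pool was left out. The lower calls over named genes were 2228 of 7905, then 1052 of 4804, 1413 of 7905 and 771 of 7905, and 1892 to 3270 when a pool was left out. None of the other autophagy genes was higher, against 1 (Atg4b) with no filter on dim probes and 3 (Atg14, Atg2a and Tfeb) with pool 1 replacing pool 3, a range of 0 to 3. The higher calls over named genes were 257 of 7905, then 307 of 16534 and 1050 of 7905 in the same order. By construction the 3-pool prior gives weight to each gene's own spread and uses fewer degrees of freedom, and the stricter filter tests fewer genes. Atg16l1 and Gabarapl2 lost their calls with the 3-pool prior although their SE was smaller (0.113 against 0.118, and 0.169 against 0.184). The part of each in the lower counts, and the cause of the other shifts, was not tested. Median centring set the median over named genes at -0.23, against -0.04. Atg5, Atg7 and the FR level of Atg16l1 are limited by signal over background.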

Other observations

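Of the 8 tested members, Gabarapl1 and Gabarapl2 had the smallest spread between pools 2 and 3 (SD 0.013 and 0.0026 on the log2 scale), and Becn1 and Pink1 the largest (SD 0.58 and 0.55). Snap29 showed the same pattern over probes as Atg12 and Gabarapl1, with a fall of over 2-fold on the brightest of its probes and values that did not pass on the others.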
